A study of Mus musculus with 8 samples.

Results

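The genes of the mitochondrial ribosome were compared between knee tissue of Anp32a knockout and wild-type mice. The set holds 77 of the 20667 genes measured, 48 named for the large and 29 for the small subunit. Members were taken by symbol: Mrpl or Mrps, a number and at most 1 further letter, with the probe set of highest mean over 8 arrays for each gene. Their 77 probe sets were all called present on all 8 arrays, so none was lost to low signal. The tissue was the tibial plateau, with articular cartilage and the bone beneath it in a single dissected block. The 4 wild-type mice were C57BL/6. The 4 knockout mice lacked Anp32a, which encodes an acidic nuclear phosphoprotein, and no strain, allele or promoter is given for them in the sources used here. All mice were 8 weeks old, and the labels give 1 array for each of the 8 samples. Chondrocyte markers were present on all 8 arrays for 17 of 17 measured genes, with marrow, bone and skeletal muscle markers beside them.

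The mitochondrial ribosome translates the few proteins encoded by mitochondrial DNA, all of them subunits of the respiratory chain and ATP synthase. Its RNAs come from mitochondrial DNA, but its proteins are encoded in the nucleus, made in the cytosol and imported. Many descend from bacterial ribosomal proteins, and others were added after mitochondria arose. The small subunit reads the messenger RNA, and the large subunit joins amino acids and anchors the ribosome to the inner membrane. Tissues that respire heavily, such as muscle and red cell precursors, depend on it, while cartilage draws much of its energy from glycolysis. The symbols do not follow the structure fully. Mrps18a and Mrps30 sit in the large subunit, and the product of Mrps36 has been placed in the 2-oxoglutarate dehydrogenase complex instead.

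Promoters of 68 members were found in a RefSeq table (build GRCm38.p6) as 74 windows of 300 bases, 250 before and 50 after a start. Mrpl38, Mrps34, Mrpl4, Mrpl54, Mrps28, Mrps35, Mrpl19, Mrpl13 and Mrpl15 are named only. The windows were searched on both strands for 3 elements known from genes of mitochondrial proteins, and for a TATA box. The ETS core CCGGAAGT, which GABP (nuclear respiratory factor 2) can bind, was in 12 member windows, 16.2%, against 3.89% of all 32851 windows. The NRF1 core GCGCATGCG was in 7, or 9.46%, against 1.75%. The YY1 core AAGATGGCG was in 8, or 10.8%, against 1.4%. The TATA box TATAAA was in 6.76% of member windows and in 13.6% of all. The NRF1 core is nearly its own reverse complement and overlapped itself on the other strand in 3 members. Any of the ETS, NRF1 and YY1 cores was in 26 windows, 35.1%, against 6.69% of all windows. Median GC content was 58.5% against 52.7%, and the windows of all genes were not matched to the members in GC content or expression. The shares are descriptions of letters, not of bound factors.

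In 6 members the YY1 core lay on the coding strand within the 50 bases after the start, that is in 8.11% of member windows and in 0.636% of all windows. These stretches are shown because the core recurs on the same strand at a like place. The core holds the letters ATG, and whether these are the start codons of the genes was not examined. Capitals mark the core.
Mrpl35: ggcaggctgcAAGATGGCGgcttccatct
Mrpl37: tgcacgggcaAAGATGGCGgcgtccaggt
Mrpl42: agattgaagcAAGATGGCGagcgcgcggt
Mrps18a: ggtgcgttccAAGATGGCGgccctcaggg
Mrps24: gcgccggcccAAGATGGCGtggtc
Mrps27: ggtgcgctccAAGATGGCGgctcccatgg
On GRCm38.p6 they lie at chr6:71823743-71823771, chr4:107066822-107066850, chr10:95501904-95501932, chr17:46111005-46111033, chr11:5707652-5707675 and chr13:99344790-99344818, in the order printed. Mrps18a and Mrps27 are on the plus strand and the other 4 on the minus strand. The core began 11 bases after the start in Mrps18a and 36 bases after it in Mrps24, the extremes of the 6. All 6 of these genes also read lower in knockout at unadjusted p under 0.05, as 47 of the 77 members did, and no relation between the element and the difference was tested.

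The next windows are shown whole because they belong to members at opposite ends of the comparison. Mrps22 had the smallest p of all members, and Mrpl33 had the highest knockout reading relative to wild type. Capitals mark an ETS core, which began 11 bases before the start in Mrps22 and 3 bases before it in Mrpl33.
Mrps22: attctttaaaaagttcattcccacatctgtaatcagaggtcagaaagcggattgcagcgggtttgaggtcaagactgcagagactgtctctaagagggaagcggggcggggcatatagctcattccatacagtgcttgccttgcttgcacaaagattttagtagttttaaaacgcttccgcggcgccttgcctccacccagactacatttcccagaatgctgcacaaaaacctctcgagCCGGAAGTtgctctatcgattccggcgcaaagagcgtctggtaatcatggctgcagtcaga
Mrpl33: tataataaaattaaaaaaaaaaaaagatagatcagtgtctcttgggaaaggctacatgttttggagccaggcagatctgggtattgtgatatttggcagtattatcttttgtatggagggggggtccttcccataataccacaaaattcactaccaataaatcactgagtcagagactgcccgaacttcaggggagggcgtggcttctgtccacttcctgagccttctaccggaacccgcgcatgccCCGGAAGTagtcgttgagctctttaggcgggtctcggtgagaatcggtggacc
They are chr9:98601630-98601929 on the minus strand and chr5:31613701-31614000 on the plus strand. Among windows of members at unadjusted p under 0.05 and of the other members, the ETS core was in 14% and 19.4%, the NRF1 core in 9.3% and 9.68%, and the YY1 core in 14% and 6.45%. Any of them was in 34.9% and 35.5%. Whether the elements have a part in the difference was not tested.

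The third window belongs to Mrps11 (chr7:78782881-78783180, plus strand). It is shown because Mrpl46, a large subunit gene, starts 42 bases away on the opposite strand, so that 1 stretch serves a gene of each subunit. Capitals mark a YY1 core, read here as its reverse complement CGCCATCTT, 108 bases before the start.
Mrps11: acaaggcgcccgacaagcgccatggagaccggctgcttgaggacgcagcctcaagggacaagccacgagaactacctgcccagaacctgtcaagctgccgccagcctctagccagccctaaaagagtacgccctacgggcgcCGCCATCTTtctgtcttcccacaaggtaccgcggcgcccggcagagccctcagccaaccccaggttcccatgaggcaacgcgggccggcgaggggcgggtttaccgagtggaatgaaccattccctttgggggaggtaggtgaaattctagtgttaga

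Anp32a checked the labels. Its probe set with the clearest loss read 9.95, 9.91, 9.76 and 9.91 in wild type and 4.98, 4.05, 4.33 and 5.04 in knockout, where it was called absent on 4 of 4 arrays. A further pair of its probe sets stayed present on all arrays and read lower by 0.51 and 0.45 on the log2 scale. All values are log2 expression values as deposited (RMA, which quantile-normalizes the arrays), and differences are knockout minus wild type. The test was limma over all 20667 genes with Benjamini-Hochberg adjustment. Since the labels do not describe how the mice were bred or housed, its p-values speak of the spread among these 8 arrays. It called 11 genes, 0.0532% of those tested, at adjusted p under 0.05. Present calls covered 57.6% to 60.1% of probe sets per array. Precision is limited by having 4 arrays in a group.

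The comparison asks whether expression of the mitochondrial ribosome differs in joint tissue without Anp32a. Readings were lower in knockout for 70 of 77 members, mostly by a small amount. The median log2 difference was -0.20, a 1.15-fold lower level, with the middle of the set between -0.28 and -0.11, against a median of 0.01 over all genes and 0.02 over the 11632 genes present on all 8 arrays. Members below 0 made up 90.9% of the set and 46.2% of all genes. None passed the adjusted test by limma, whose adjusted p ran from 0.159 to 0.991. At unadjusted p under 0.05, 47 members were lower and 0 higher. That is 61.0% of the members, against 9.26% of all genes lower and 10.1% higher, and against 13.8% lower among genes present on all 8 arrays. In 27 members every knockout array lay below every wild-type array, and in 0 members above. The 27 are 35.1% of the set, against 5.42% of all genes and 8.00% of genes present on all 8 arrays. In a bulk sample, fewer cells of a type and less RNA per cell cannot be told apart.

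The medians of the subunits lay close together. The 48 large subunit genes had a median of -0.19, with 43 below 0 and 29 at unadjusted p under 0.05. The 29 small subunit genes had a median of -0.23, with 27 below 0 and 18 at unadjusted p under 0.05. Counting Mrps18a and Mrps30 with the large subunit and leaving out Mrps36 gave medians of -0.19 and -0.22. The 46 members with a bacterial homolog had a median of -0.22, with 29 at unadjusted p under 0.05. The 30 found in mitochondrial but not bacterial ribosomes had a median of -0.18, with 17. No difference between these classes was tested.

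**Figure D1:**
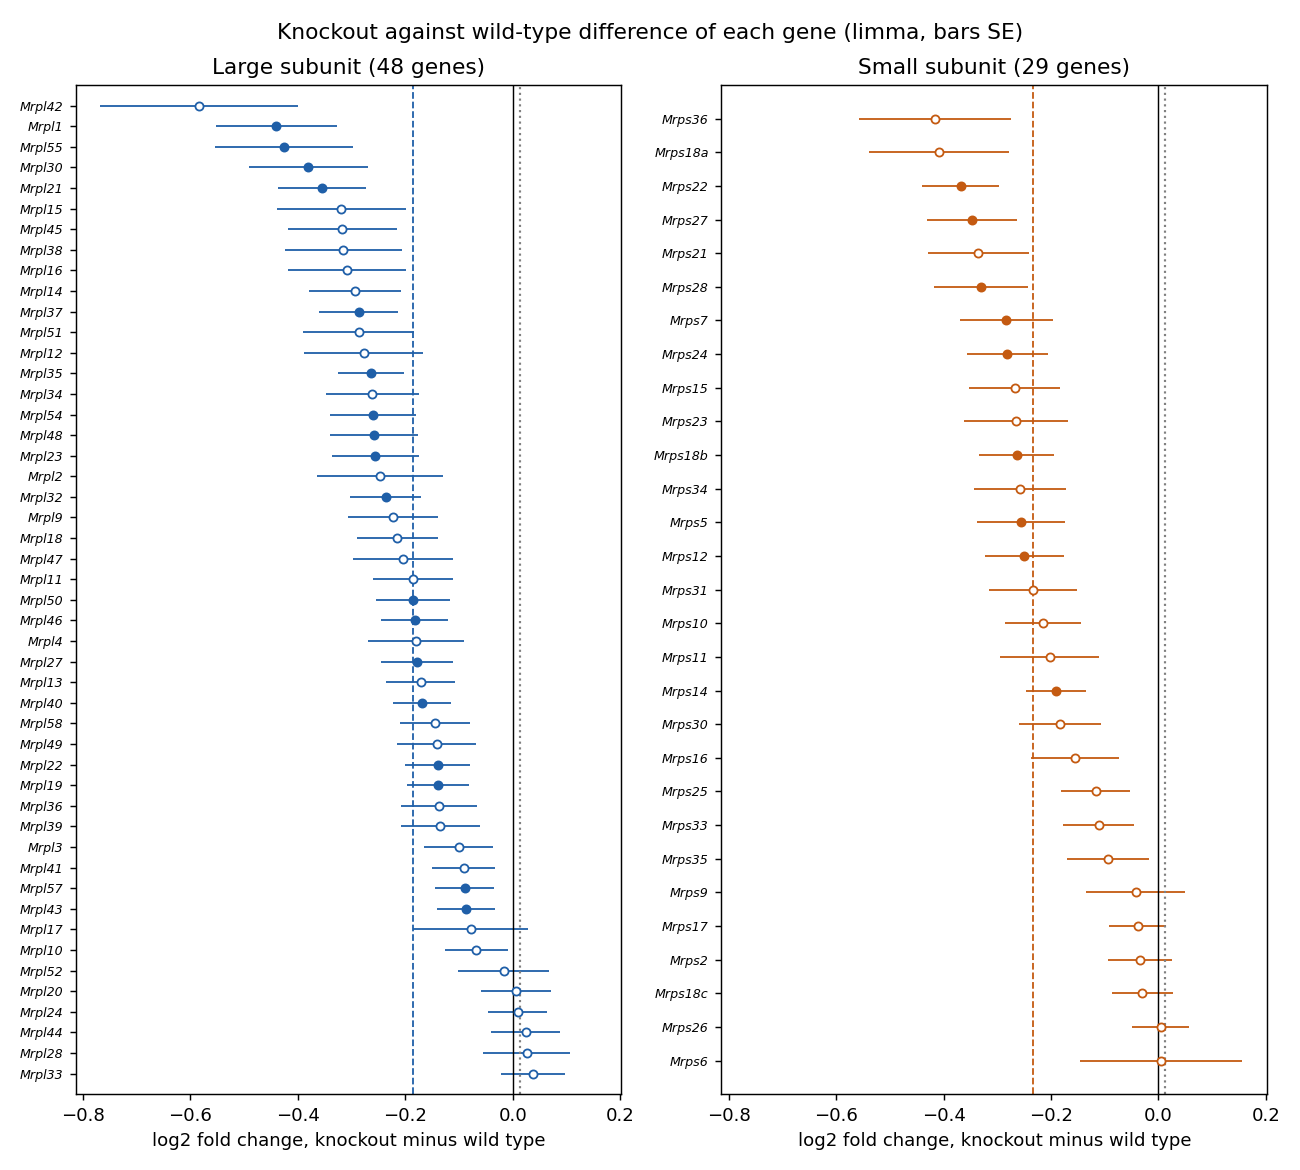
Log2 difference, knockout minus wild type, of each of the 48 large and 29 small subunit genes on the horizontal axis, with SE bars from limma. Filled points are the 27 genes whose groups did not overlap. Dashed lines mark the subunit medians of -0.19 and -0.23, the dotted line marks the median of all genes at 0.01, and 70 of 77 points lie left of 0.

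Among small subunit genes the clearest difference was in Mrps22, a mitochondria-specific protein that is mutated in inherited mitochondrial disease in humans. Its wild-type arrays read 9.68, 9.56, 9.62 and 9.53 and its knockout arrays 9.17, 9.20, 9.16 and 9.39. The groups did not overlap and all 4 knockout arrays stood clear of the wild types, knockout 4 least. The difference was -0.37 ± 0.07 (SE, n = 4 per group, 1.29-fold), with a limma adjusted p of 0.159. Mrps27, a pentatricopeptide repeat protein, read 7.46, 7.41, 7.69 and 7.63 in wild type and 7.26, 7.11, 7.13 and 7.30 in knockout. Its groups were also apart, with a difference of -0.35 ± 0.08 and an adjusted p of 0.159 by limma. Mrps28 read 11.23, 11.13, 11.27 and 11.27 against 10.97, 10.75, 10.77 and 11.09. Its knockout 4 lay just under the lowest wild type, and the difference was -0.33 ± 0.09 (limma adjusted p 0.160). The narrowest groups among these genes belonged to Mrps14, a homolog of bacterial S14, at 11.33 ± 0.04 (SD, n = 4) in wild type and 11.14 ± 0.04 in knockout. There all 4 knockout arrays sat together, between 11.09 and 11.17, below a lowest wild type of 11.29. Other Mrps14 probe sets present on all 8 arrays gave -0.12 and -0.16, both with overlapping groups.

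Further small subunit genes also read lower on average. Mrps5 read 8.45 ± 0.05 in wild type and 8.19 ± 0.15 in knockout (n = 4), and its groups were apart. That rests on the probe set chosen, since others of Mrps5 present on all 8 arrays gave -0.17 and 0.10. Mrps34, which the small subunit needs for its stability in mice, read 10.94 ± 0.07 against 10.68 ± 0.15, with knockout 4 inside the wild-type range. Mrps12, a homolog of the bacterial protein at the decoding site, read 10.36 ± 0.09 against 10.11 ± 0.10 with groups apart. Mrps16 read 11.36 ± 0.04 against 11.21 ± 0.15, and knockout 4 at 11.36 lay inside the wild-type range and knockout 2 at 11.30 just under it. Mrps36, the symbol whose product lies outside the ribosome, read 10.44 ± 0.11 against 10.02 ± 0.31, with a difference of -0.42.

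Mammals carry 3 homologs of bacterial S18, which occupy different places in the ribosome. Mrps18a and Mrps18b read lower in knockout while Mrps18c differed little, and no difference between the 3 was tested. Mrps18a, placed in the large subunit, read 10.21, 10.08, 10.31 and 10.38 in wild type and 9.92, 9.64, 9.60 and 10.18 in knockout, a difference of -0.41 ± 0.13 with knockout 4 inside the wild-type range. Mrps18b read 9.72, 9.65, 9.66 and 9.67 against 9.47, 9.40, 9.25 and 9.51, so that its groups were apart, with a difference of -0.26 ± 0.07. Mrps18c read 10.72, 10.70, 10.68 and 10.72 against 10.70, 10.60, 10.74 and 10.67. Its groups overlapped and its difference was -0.03 ± 0.06 (limma adjusted p 0.826).

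In the large subunit, Mrpl42, a protein added in mitochondria, had the lowest value, -0.58 ± 0.18. Its wild-type arrays read 12.42, 12.24, 12.48 and 12.50 and its knockout arrays 12.14, 11.43, 11.49 and 12.25. Knockout 2 and 3 were far below the rest, and knockout 4 was level with the lowest wild type, so the groups overlapped. Mrpl1, a homolog of the bacterial protein of the L1 stalk where spent transfer RNA leaves, read 8.34, 8.16, 8.28 and 8.28 against 7.93, 7.53, 7.76 and 8.08. There the groups were apart, with a difference of -0.44 ± 0.11 (1.36-fold, limma adjusted p 0.159). Another Mrpl1 probe set present on all 8 arrays gave a smaller difference, -0.18. Mrpl55 read 9.76, 9.61, 9.83 and 9.81 against 9.57, 9.06, 9.11 and 9.56, again with groups apart and a difference of -0.43 ± 0.13. Mrpl30 read 11.77, 11.59, 11.77 and 11.76 against 11.48, 11.09, 11.22 and 11.58, where knockout 4 lay just below wild type 2. The difference was -0.4 or lower in 5 members, Mrpl42, Mrpl1, Mrpl55, Mrps36 and Mrps18a, and Mrpl30 followed at -0.38.

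Further large subunit genes had differences between -0.35 and -0.07. Mrpl35 read 10.83, 10.76, 10.81 and 10.81 in wild type and 10.60, 10.50, 10.44 and 10.61 in knockout. All 4 knockout arrays lay below all wild types, and the difference was -0.26 ± 0.06 (limma adjusted p 0.159). Mrpl37 read 9.04, 9.01, 9.03 and 9.01 against 8.83, 8.57, 8.69 and 8.85. Its wild-type arrays had an SD of 0.02, and its knockout arrays all lay below them. Mrpl21, a homolog of bacterial L21, read 9.47, 9.43, 9.52 and 9.61 against 9.10, 9.13, 9.03 and 9.35, a difference of -0.35 ± 0.08 with groups apart. Mrpl12, which forms the stalk that recruits translation factors and also binds the mitochondrial RNA polymerase, had a difference of -0.28 ± 0.11. Its stalk partner Mrpl10 had a value of -0.07 ± 0.06. Mrpl58, also called ICT1, a peptidyl-tRNA hydrolase built into the ribosome, had a value of -0.14 ± 0.06.

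A minority of members showed little or no lower reading. The log2 difference was within 0.1 of 0 in 18 members, and 7 of these were above 0. Among the 18, Mrpl57 at -0.09 still had all knockout arrays below all wild types. Mrpl33, the highest, read 11.09, 11.11, 11.21 and 11.17 in wild type and 11.16, 11.18, 11.26 and 11.14 in knockout, a difference of 0.04 ± 0.06. Mrps26 stayed between 10.06 and 10.12 on all 8 arrays, and Mrpl24 between 10.96 and 11.06. Mrpl44, an RNase III-like protein mutated in a human cardiomyopathy, had a value of 0.02 ± 0.06, and Mrpl28 one of 0.03 ± 0.08. Both rest on the probe set chosen. The other probe sets of Mrpl44 gave -0.31, -0.21 and -0.12, and those of Mrpl28 gave -0.065 and -0.064. Mrps6 differed from all of these in spread. Its wild types read 9.64, 9.74, 9.78 and 9.66 and its knockouts 9.50, 10.15, 9.37 and 9.83, so that knockout 2 was the highest array and knockout 3 the lowest. The values of Mrpl24, Mrps26 and Mrps6 were below 0 where each array was centred on its own median.

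**Figure D2:**
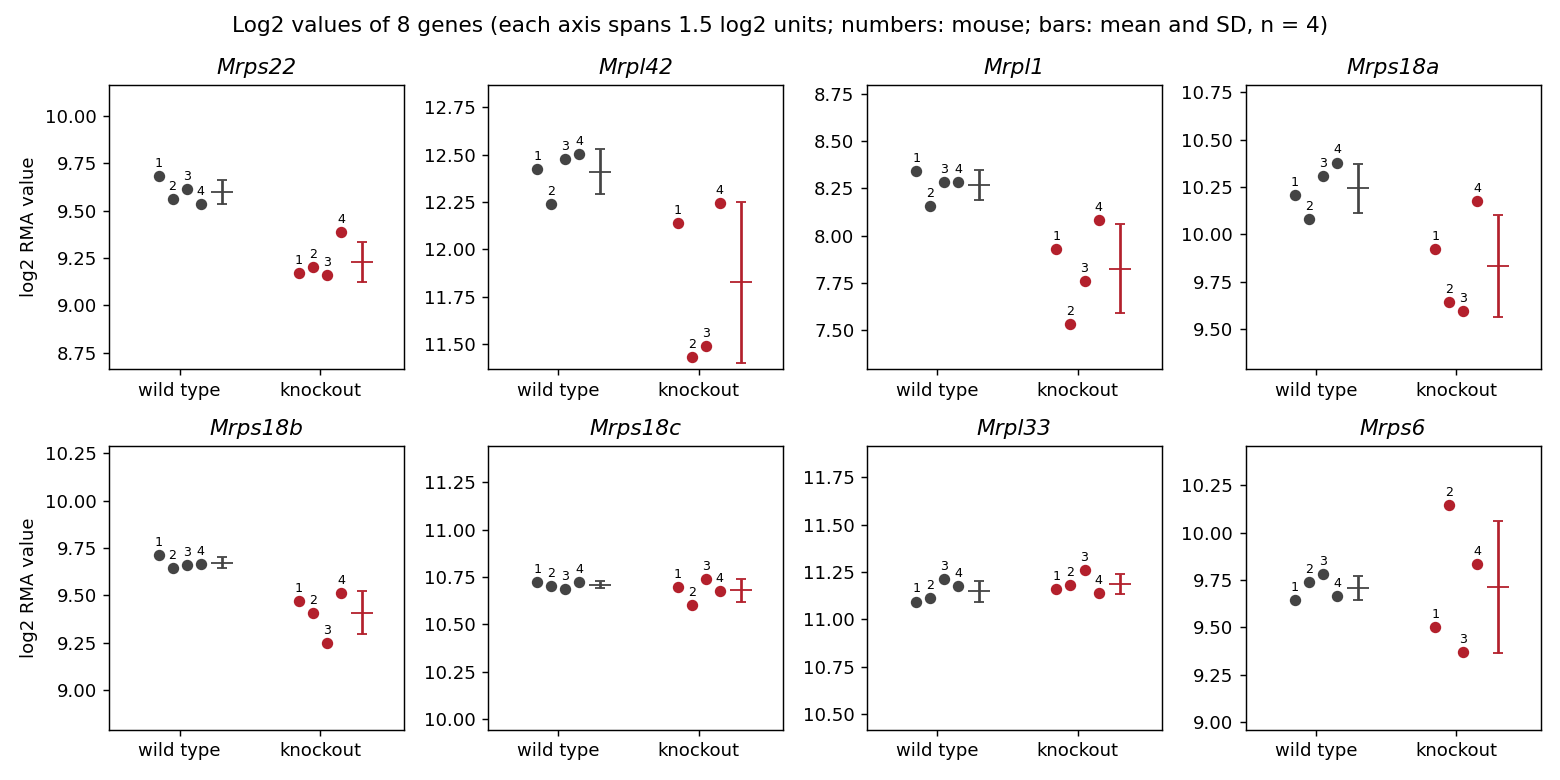
Log2 RMA values of Mrps22, Mrpl42, Mrpl1, the 3 S18 homologs, Mrpl33 and Mrps6 on the 4 wild-type and 4 knockout arrays, each point labelled with its mouse and bars giving mean and SD. In Mrpl42 knockout 2 and 3 read 11.43 and 11.49 while knockout 4 read 12.25, in Mrps22 all knockout arrays were at or below 9.39, and in Mrps6 the knockout arrays spread from 9.37 to 10.15.

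Members lay on 17 chromosomes. Mrps22, Mrpl4 and Mrpl3 are on chromosome 9, as is Anp32a, and 0 members lie within 20 Mb of it. Mrpl4 read 9.75 ± 0.09 in wild type and 9.57 ± 0.16 in knockout, and Mrpl3 read 9.92 ± 0.06 and 9.82 ± 0.07 (n = 4), with overlapping groups in both.

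A second look at each gene came from its other probe sets. The members had 155 probe sets in all, 36 members had 1 and Mrpl15 had 8. Of the 78 probe sets not used above, 49 were present on all 8 arrays. Among these 40 read lower in knockout, with 26 lower and 1 higher at unadjusted p under 0.05 and a median of -0.21. Of all 22553 probe sets present on all 8 arrays, 13.6% were lower at that threshold. The 29 with weaker signal had a median of 0.00, with 14 below 0. Each probe set tested for itself by limma gave 0 passing members, 74 of 155 probe sets lower at unadjusted p under 0.05, against 8.74% of all 45037, and a smallest adjusted p of 0.130. Mrpl35 was lower by all 3 of its probe sets, at -0.72, -0.32 and -0.26.

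Probe sets of a gene differed by over 0.5 in 2 members. In Mrpl15, 4 bright probe sets gave -0.54 to -0.32 and the other 4 gave 0.05 to 0.11, of which 1 was never called present and 1 was called present on 1 array. In Mrps31 the bright probe set gave -0.23, and a dim one, present on 1 wild-type and 4 knockout arrays, gave 0.27. The mean of all probe sets of Mrps31 read 0.02, while that of Mrpl44 read -0.15.

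The lower readings were not spread evenly over the knockout mice. Relative to the mean of 8 arrays, large subunit genes averaged 0.11, 0.03, 0.11 and 0.14 on the wild-type arrays and -0.05, -0.18, -0.19 and 0.02 on the knockout arrays. Small subunit genes averaged 0.12, 0.03, 0.12 and 0.14, and -0.08, -0.17, -0.19 and 0.03. Knockout 2 and 3 were thus lowest in both subunits, knockout 1 was between, and knockout 4 was level with wild type 2. Knockout 2 or 3 was the lowest knockout array in 63 of the 70 members below 0, and knockout 4 the highest in 52. All 4 knockout arrays lay below the wild-type mean in 60 of 77 members. No share over all genes stands beside these counts, and the members share the same 8 arrays.

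**Figure D3:**
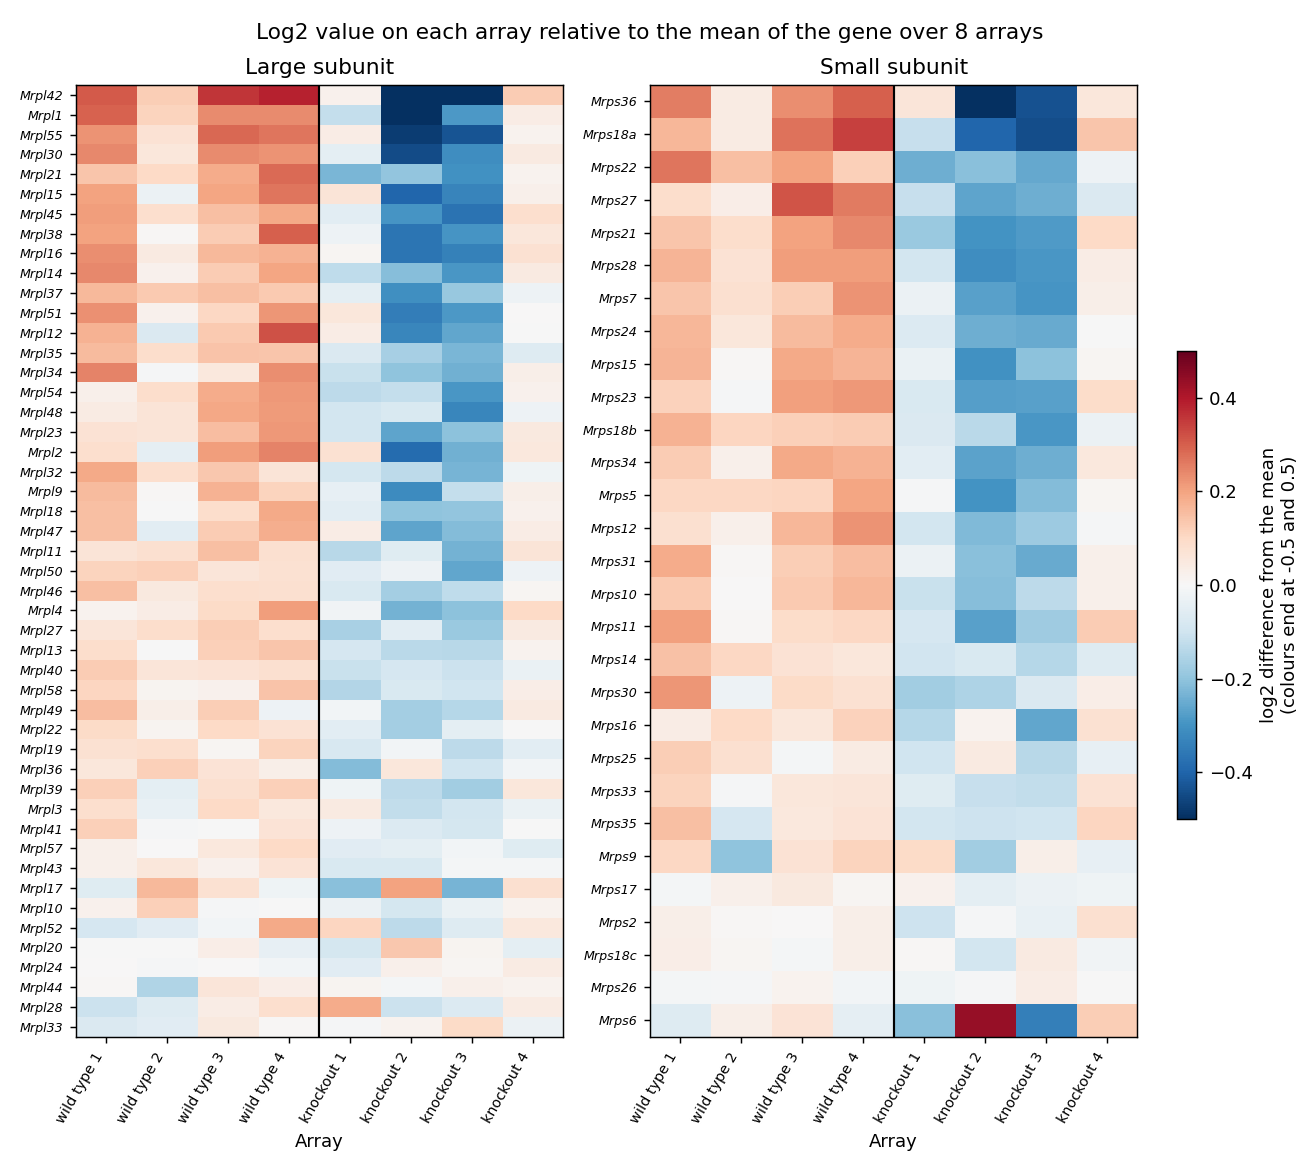
Log2 value of each member on each array relative to its own mean over 8 arrays, genes in rows by subunit, ordered from the lowest difference, arrays in columns. Colours end at -0.5 and 0.5, so more extreme values share the end colour. Columns of wild type 1, 3 and 4 are mostly red and those of knockout 2 and 3 mostly blue. Wild type 2 averages 0.03 in both subunits, and knockout 4 averages 0.02 in the large and 0.03 in the small. The bottom rows, Mrpl33 and Mrps6 among them, break the pattern.

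The count of calls turned on knockout 4. Without it, 23 members passed the limma test, all lower, 12 of the large and 11 of the small subunit, with a smallest adjusted p of 0.0272, and 4.07% of all genes were called lower. Of the 23, 16 had groups apart with all 8 arrays. The median was then -0.26 and 72 members were below 0. Leaving out knockout 2 and 3 instead left 0 passing members, a smallest adjusted p of 0.582 and a median of -0.13. At unadjusted p under 0.05, 9 members were then lower, against 3.93% of all genes, and 72 of 77 were below 0. The 9 were Mrps22, Mrpl21, Mrpl35, Mrps27, Mrpl1, Mrpl37, Mrps18b, Mrps28 and Mrps14. Mrps22 was at -0.32 in that fit, close to its value over all arrays, and Mrpl42 went from -0.58 to -0.22.

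Members varied together across arrays. Over 8 arrays the median correlation between members was 0.75 over 2926 pairs, 0.75 within the large subunit, 0.74 within the small and 0.76 between them. The median over all pairs of genes present on 8 arrays was 0.04. With the genotype means taken out the member median was 0.51, against 0.03 over all pairs. Over the 6 arrays without knockout 2 and 3 it was 0.66, against 0.02. These are descriptions, since the pairs share the same arrays and the same normalization. Set against the mean of the other members, with genotype means removed, 39 members correlated above 0.8, with Mrps24 at 0.99 and Mrps28 at 0.99. A group of 8 had negative values, among them Mrpl20 at -0.65, Mrps26 at -0.42 and Mrpl33 at -0.38.

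Other parts of mitochondrial translation were read from fixed lists, in which 0 genes passed the limma test. Their counts at unadjusted p under 0.05 stand against the 9.26% of all genes that were lower and the 10.1% that were higher. Most genes of these lists were present on all 8 arrays. Of the 11632 genes so present, 13.8% were lower and 1661 were higher at that threshold. Of 5 further ribosome proteins with symbols of another form, 4 were below 0 and 2 lower at unadjusted p under 0.05, with a median of -0.21. Chchd1 was at -0.38 and Gadd45gip1 at -0.24, while Dap3, a GTP-binding protein of the small subunit, was at 0.04. The median of these 5 was -0.05 without knockout 2 and 3 and -0.02 with the mean of muscle markers as a covariate, a fit described further on. Of 10 translation factors, 5 were lower at unadjusted p under 0.05 and 0 higher, with a median of -0.17, which was -0.12 without knockout 2 and 3 and -0.08 with the muscle covariate. Mtfmt, which formylates the initiator methionyl-tRNA, read 8.31, 8.15, 8.23 and 8.12 in wild type and 7.77, 7.83, 7.72 and 7.65 in knockout. Here knockout 4 was the lowest array, not the highest, and the difference was -0.46 ± 0.07 (limma adjusted p 0.0807). The elongation factor Gfm1 and the recycling factor Gfm2 had values of -0.37 ± 0.13 and -0.44 ± 0.15, with knockout 2 lowest in both.

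Upstream steps had smaller differences. Of 25 assembly and ribosomal RNA modification genes, 5 were lower, 20%, and 1 higher at unadjusted p under 0.05. Their median was -0.10, and it was -0.08 without knockout 2 and 3 and -0.06 with the muscle covariate. Malsu1, an assembly factor of the large subunit, was at -0.47 ± 0.15, Eral1, a chaperone of the small subunit RNA, at -0.28 ± 0.09, and the methyltransferase Mrm3 at -0.26 ± 0.07. Of 17 mitochondrial aminoacyl-tRNA synthetases, 2 were lower at unadjusted p under 0.05, Yars2 at -0.33 and Fars2 at -0.25, a share of 11.8% that is near the background, and 2 of the 17 were absent on all arrays. Their median was -0.07. Among 12 regulators of mitochondrial transcription and biogenesis, 3 were lower, 25%, and 2 higher, 16.7%, with a median of -0.05. The RNA polymerase Polrmt and its initiation factor Tfb2m were at -0.32 and -0.35. Nrf1, the transcription factor named for the NRF1 core, read 8.14, 8.32, 8.02 and 8.12 in wild type and 8.50, 8.51, 8.65 and 8.32 in knockout, a value of 0.34 ± 0.09 with wild type 2 level with knockout 4.

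Products of mitochondrial translation join nuclear subunits of the respiratory chain. Of 37 such nuclear genes, 36 were below 0 and 12 lower at unadjusted p under 0.05, with a median of -0.37. That count is 32.4% of the list, against 13.8% of the genes present on all 8 arrays, as all 37 were. The median was -0.05 without knockout 2 and 3. The array means of the list were 0.20, -0.05, 0.24 and 0.29 in wild type and 0.10, -0.55, -0.36 and 0.13 in knockout, a wider swing on knockout 2 and 3 than in the ribosome genes. The 28 cytosolic ribosomal proteins had a median of 0.09, which was 0.03 without knockout 2 and 3 and 0.01 with the muscle covariate. At unadjusted p under 0.05, 3 were higher and 1 lower, and the 3 are 10.7% of the list, near the 10.1% of all genes.

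Markers of other cell types also varied between arrays, not all in the same order. Chondrocyte markers, for example, averaged 0.33 on knockout 2 and -0.21 on knockout 3. Skeletal muscle markers were all present on all 8 arrays, and 20 of 25 were lower at unadjusted p under 0.05. That is 80%, against 13.8% of genes present on all 8 arrays. The muscle markers averaged 0.32, 0.20, 0.43 and 0.50 in wild type and 0.11, -1.22, -0.61 and 0.27 in knockout. Their median difference was -0.81. The order of the knockout arrays was thus close to that of the ribosome genes, with knockout 2 and 3 lowest and knockout 4 highest. That order was not particular to muscle. Adipocyte markers averaged -0.22, -0.43, -0.37 and 0.54 on the knockout arrays, again with knockout 2 and 3 lowest and knockout 4 highest. Erythroid markers, 19 measured and 1 of them absent on all arrays, were higher in 6 and lower in 2 at unadjusted p under 0.05. The 6 are 31.6% of the list, against 10.1% of all genes. The 2 are 10.5%, near the 9.26% of all genes. Erythroid markers had a median of 0.74 and averages of 0.28, -0.23, -0.98 and -0.28 in wild type and 0.79, 0.28, 0.51 and -0.38 in knockout. Of 25 cell cycle genes, 20 were higher at unadjusted p under 0.05, 80% against 10.1% of all genes, with a median of 0.54. The cell cycle genes averaged 0.42, 0.35, 0.52 and -0.23 on the knockout arrays, with knockout 4 lowest. Medians were 0.51 for 14 B cell, 0.31 for 14 neutrophil, 0.31 for 12 osteoclast, 0.19 for 12 osteoblast and osteocyte, -0.21 for 11 adipocyte and 0.03 for 17 chondrocyte markers. The part of these last lists in the ribosome result was not tested.

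**Figure D4:**
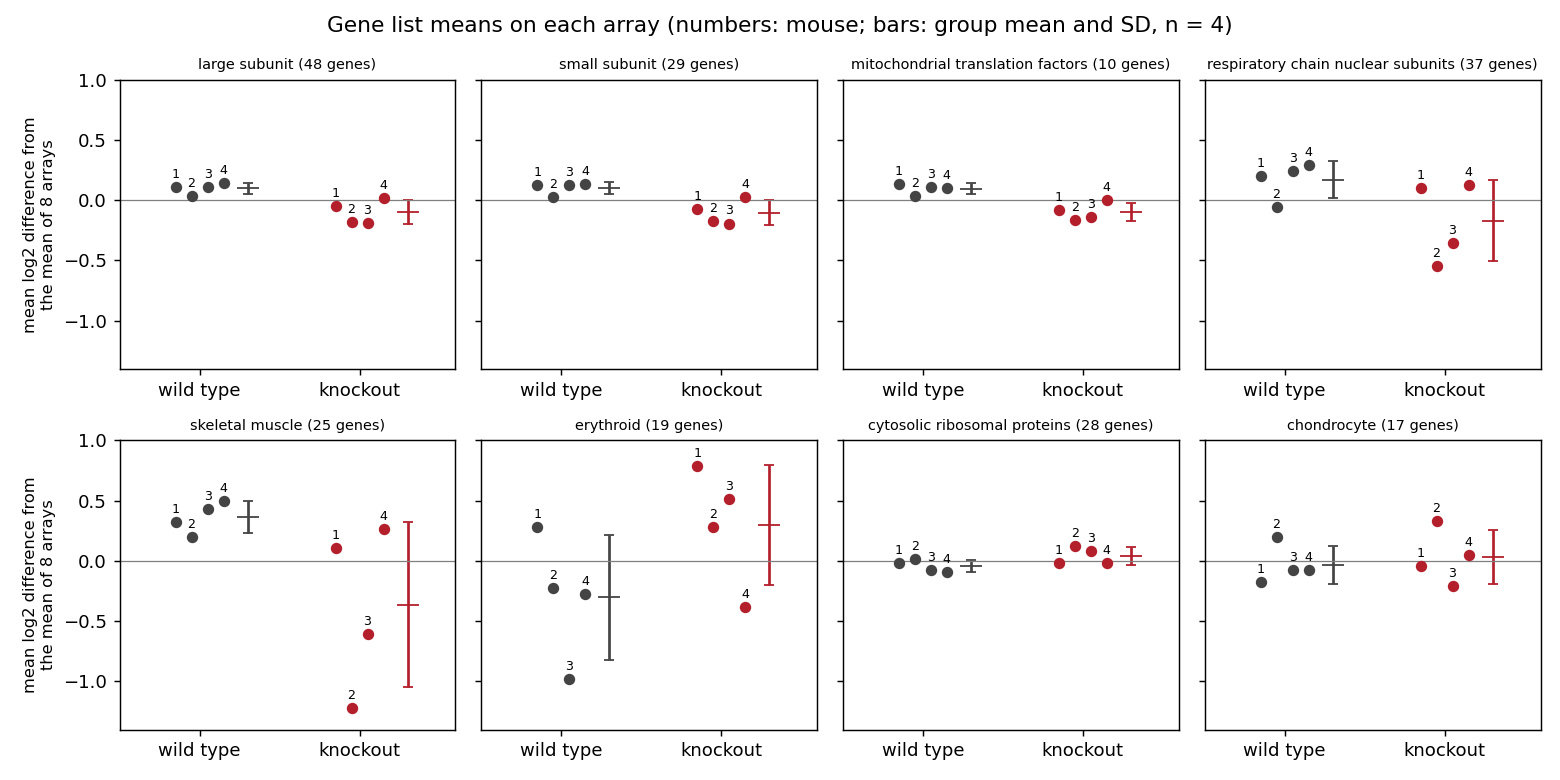
Mean log2 value of 8 gene lists on each array relative to the mean of 8 arrays, points labelled with the mouse, bars giving group mean and SD (n = 4). Large and small subunit genes keep within -0.19 and 0.14, while muscle markers reach -1.22 on knockout 2. Cytosolic ribosomal proteins read highest on knockout 2 and 3.

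The comparison was repeated with the mean of these markers per array as a covariate in limma. With the muscle mean, 8 members were lower at unadjusted p under 0.05, against 3.35% of all genes, 70 of 77 were below 0, the median was -0.10 and the smallest adjusted p was 0.749. The 8 were Mrps22, Mrpl21, Mrpl35, Mrps27, Mrpl1, Mrps18b, Mrps14 and Mrpl36. Mrps22 was at -0.32 and Mrps14 at -0.19 in that fit, and Mrpl42 at -0.15. The median of the respiratory chain list was 0.04 in the same fit. With the erythroid mean, 20 members were lower, against 3.86% of all genes, 68 were below 0 and the median was -0.17, with a smallest adjusted p of 0.561. The muscle mean was itself lower on the knockout arrays on average, so its part in the lower readings and that of genotype cannot be told apart.

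Neighbouring genes gave a comparison within the same stretches of DNA. A gene on the opposite strand started within 1000 bases of the start of 26 of the 68 members in the promoter table, 38.2%, against 12.3% of all genes in it. Of the 24 such neighbours that were measured and are not members, 11 were below 0, with a median of 0.04. At unadjusted p under 0.05, 2 of the 24 were lower and 7 higher, where 9.26% of all genes were lower and 10.1% higher. The lower count was thus near the share of all genes. Mrpl51 was at -0.29, and Ncapd2, a condensin subunit that starts 614 bases away, at 0.67. Mrpl57 was at -0.09 and its neighbour Ska3, which helps join kinetochores to the spindle, at 0.53. Mrpl21 was at -0.35 and Ighmbp2, a helicase 32 bases away, at 0.10. The neighbours that were lower were Ndufb5, a respiratory chain subunit beside Mrpl47, at -0.46, and Ptcd2, a mitochondrial RNA-binding protein beside Mrps27, at -0.17. In the shared stretch printed above, Mrps11 and Mrpl46 were at -0.20 and -0.18.

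**Figure D5:**
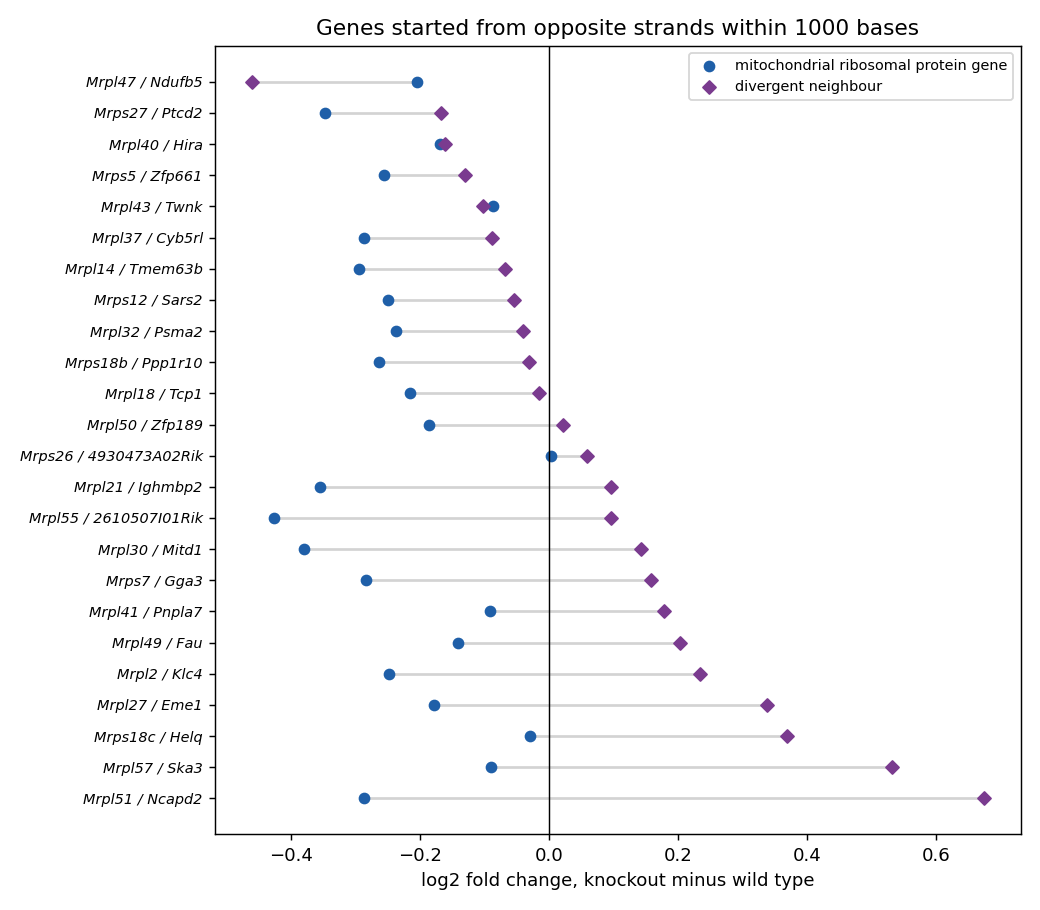
Log2 difference, knockout minus wild type, of 24 members (circles) and of the gene that starts within 1000 bases on the opposite strand (diamonds), joined by a line. Circles lie left of 0 in all pairs but that of Mrps26, while 13 of the diamonds lie right of 0.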

How the data were processed

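For 8 Affymetrix arrays the authors deposited RMA values on the log2 scale, per the submitters' processing notes. Per the file headers, their table also gave a symbol and a detection call for each probe set, with the authors' log2 fold changes and p-values. Neither the array design nor a genome build is stated. Because RMA equalises the distributions of the arrays, a shift shared by most genes would not show. Symbols were missing for 6889 of 45037 probe sets and replaced by dates for 62, and these were not used, nor were 64 rows without an identifier. The highest-mean probe set stood for each of 20667 genes.

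Genotypes were compared with limma 3.58.1 in R 4.3.3 (two-sided, no covariate, Benjamini-Hochberg over all genes, threshold 0.05). Recomputed fold changes differed from the authors' deposited table by at most 4.8e-08. On simulated data over 20667 genes, knockout against wild type, 29 of 50 genes changed by 0.5 log2 and 46 of 50 changed by 1 were recovered. There were 7 false calls among 177. The simulated noise was independent between genes, while in the data members varied together. Deviations of same-numbered arrays gave mixed correlations (r 0.09, 0.56, -0.39 and 0.34). The labels state no pairing, so the fit was unpaired. Alternatives were other probe set, normalization, weighting and variance choices, marker covariates, a replicate block and left-out arrays.

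The members, the gene lists and the rule for naming genes were chosen with earlier results of these data known. Named are, per subunit, members of highest and lowest level, smallest p in each direction and widest spread, the S18 homologs, members on the chromosome of Anp32a, members with diverging probe sets, and up to 3 genes of smallest p per list. Dap3 and other list genes, members or neighbours named beyond it illustrate a role, a shared promoter or a correlation and were chosen after their values were seen. Promoters and chromosomes came from RefSeq (GRCm38.p6).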

Additional observations from a re-analysis of the deposited data

Results flagged for a closer look

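In 3 of 66 groups of 4 arrays examined, 1 array stood apart by Dixon's criterion, and chance flags about 1 group in 20. Mrpl30 read 11.59 on wild type 2, while the other wild types read 11.76 to 11.77. Mrps5 read 8.52 on wild type 4, against 8.42 to 8.43. The mean of the small subunit genes was 0.0298 on wild type 2, against 0.12 to 0.14 on the other wild types.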

How the results depend on the processing

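All 19 settings applied to the members left both subunit medians below 0 and, except where knockout 4 was left out, 0 members passing the limma test. Leaving out 1 array at a time gave 1 to 1786 genes and 0 to 23 members passing, 35 to 55 members at unadjusted p under 0.05, and medians of -0.24 to -0.16 for the large and -0.28 to -0.20 for the small subunit. The highest counts all came without knockout 4. With the muscle covariate 1 gene passed, 8 members were at unadjusted p under 0.05 and the small subunit median was -0.11. With the erythroid covariate 6 genes passed and 20 members were at unadjusted p under 0.05. Without knockout 2 and 3 together the values were 1 gene, 9 members and -0.13. With a replicate block 4 genes passed in place of 11, with 0 members passing and 47 at unadjusted p under 0.05, as in the fit without it. The numbers pair nothing that the labels state. The cause of these shifts was not tested.

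Of 25 named members with a lower reading, 23 kept that direction in every setting. The exceptions were Mrps31 (0.018 with all probe sets averaged) and Mrps18c (0.00030 with the muscle covariate). Members near 0 changed sign. With all probe sets averaged, Mrpl44 was at -0.15, Mrpl28 at -0.034 and Mrps26 at -0.027. With arrays centred, Mrpl24 was at -0.0014, Mrps26 at -0.0066 and Mrps6 at -0.0057. Array weights put Mrps6 at -0.034. The muscle covariate put Mrpl24 at -0.0035, Mrps26 at -0.0040 and Mrps6 at -0.15. Without knockout 2 and 3, Mrpl24 was at -0.0036, Mrps26 at -0.0099 and Mrps6 at -0.041. Leaving out 1 array gave -0.032 to 0.066 for Mrpl28, -0.14 to 0.12 for Mrps6, -0.022 to 0.049 for Mrpl44, -0.0075 to 0.012 for Mrps26 and -0.0036 to 0.030 for Mrpl24. The simulated test recovered 29 of 50 genes changed by 0.5 log2, more than the difference of any member but Mrpl42. It drew noise for each gene independently and made 177 calls, against 11 in the data. Its recovery therefore does not carry over to the members.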
